A study of Mus musculus with 12 samples.

Results

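The genes described here are 40 enzymes and transporters of central carbon metabolism: 2 glucose transporters, 14 genes of glycolysis, 7 that convert pyruvate and lactate, 12 of the TCA cycle with its isocitrate and malate side enzymes, 4 of the pentose phosphate pathway and 1 of serine synthesis. They were found on a whole mouse genome array by gene name, or by a RefSeq accession that maps to the name, among the 43379 non-control spots that stand for 41174 probes. A probe was found for 39 of the 40, with 71 probes in all, and Gapdh was not analysed here. The 12 arrays each hold 1 blastomere: both cells of 6 embryos of CF-1 mice, an outbred strain, taken at the 2-cell stage about 36 h post coitus after natural breeding. Embryos were flushed from the oviduct in a buffer without glucose, the zona was slit and the cells were pressed out 1 at a time, so no cell received a treatment. Poly(A) RNA of each cell was amplified over 2 rounds before hybridisation. Experiment 1 holds pairs D, I and L and experiment 2 holds pairs D, G and H, and the shared letter D names different embryos. The labels number the cells of a pair 1 and 2 without saying how they differ.

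Glycolysis splits glucose to pyruvate in the cytosol. Pyruvate is then either exchanged with lactate by lactate dehydrogenase or carried into mitochondria, where the pyruvate dehydrogenase complex feeds it to the TCA cycle. The pentose phosphate pathway draws on the same glucose phosphate and supplies NADPH and ribose. Mouse embryos at the first cleavages are known for their dependence on pyruvate and lactate, with glucose used mainly from the morula on, and the oocyte is known to store lactate dehydrogenase of the B type.

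Experiment and dye coincide and cannot be told apart. Each experiment has 2 slides of its own, with pair D alone on 1 of them and the other pairs together on the other, so pair D and its slide cannot be told apart either. The labels name Cy3 for all arrays, but in experiment 1 the signal lies in the Cy5 channel of 2-channel scans, while experiment 2 was scanned in Cy3 alone. Between 22.1% and 41.7% of spots were well above background in experiment 1 and between 31.2% and 78.8% in experiment 2, with pair D of experiment 2 highest at 78.8% and 64.3%. Transcripts typical of the oocyte and the 2-cell embryo were detected in every cell: the 14 such markers with a probe summed to 51.9 to 93.7 scaled units in experiment 1 and 64.7 to 92.1 in experiment 2. Single ones differed between experiments at an adjusted p under 0.05 by limma. Of the 13 tested, 2 were higher in experiment 2, Tcstv1 at 2.11 ± 0.22 (SE) and Tcstv3 at 1.45 ± 0.25. Zar1 was lower, at -1.43 ± 0.38 (rounded), and Nlrp5 was well above background on 4 arrays. Markers of cells around the embryo were not evenly spread. The 12 markers of oviduct epithelium summed to between 9.59 and 73.4 in experiment 1 against 0.166 to 1.59 in experiment 2, and the 12 of stroma and smooth muscle to between 13 and 98.7 against 0.136 to 0.999. Macrophage and blood markers ran from 5.94 to 262.0 against 0.121 to 0.978. Single markers did not all follow these sums. At the same cut, 6 of 12 tested oviduct markers were lower in experiment 2. So were 11 of 11 of stroma and smooth muscle and 2 of 8 of macrophage and blood, and 0 were higher. The oviduct markers Epcam and Pax8 differed by 0.62 and 0.54 without passing. Cumulus and granulosa markers stayed between 0.0 and 1.18 in all cells, and Fshr and Tnfaip6 were well above background in none. The part of these transcripts in the differences below was not tested.

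Values are log2 scaled signals, in which 0 is the 75th percentile of the 5857 probes detected on all 12 arrays and -4.12 is a common floor. They are given for cell 1 and then cell 2, with the letter of the embryo. Each compares cells for 1 probe, since levels of different probes cannot be ranked. Of the 40 genes, 24 had a probe well above background in all 12 cells, 15 in some cells only, and 35 reached the 6 arrays needed for testing. The untested Pfkl, a liver-type phosphofructokinase, and Idh2, the mitochondrial NADP-linked isocitrate dehydrogenase, were well above background on 3 arrays each, all of experiment 2. Idh1, the cytosolic counterpart of Idh2, reached 4 arrays, and Idh3b, a subunit of the NAD-linked enzyme, 2. All 4 pentose phosphate genes, but 5 of 12 TCA cycle genes, were measured in every cell.

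**Figure D1:**
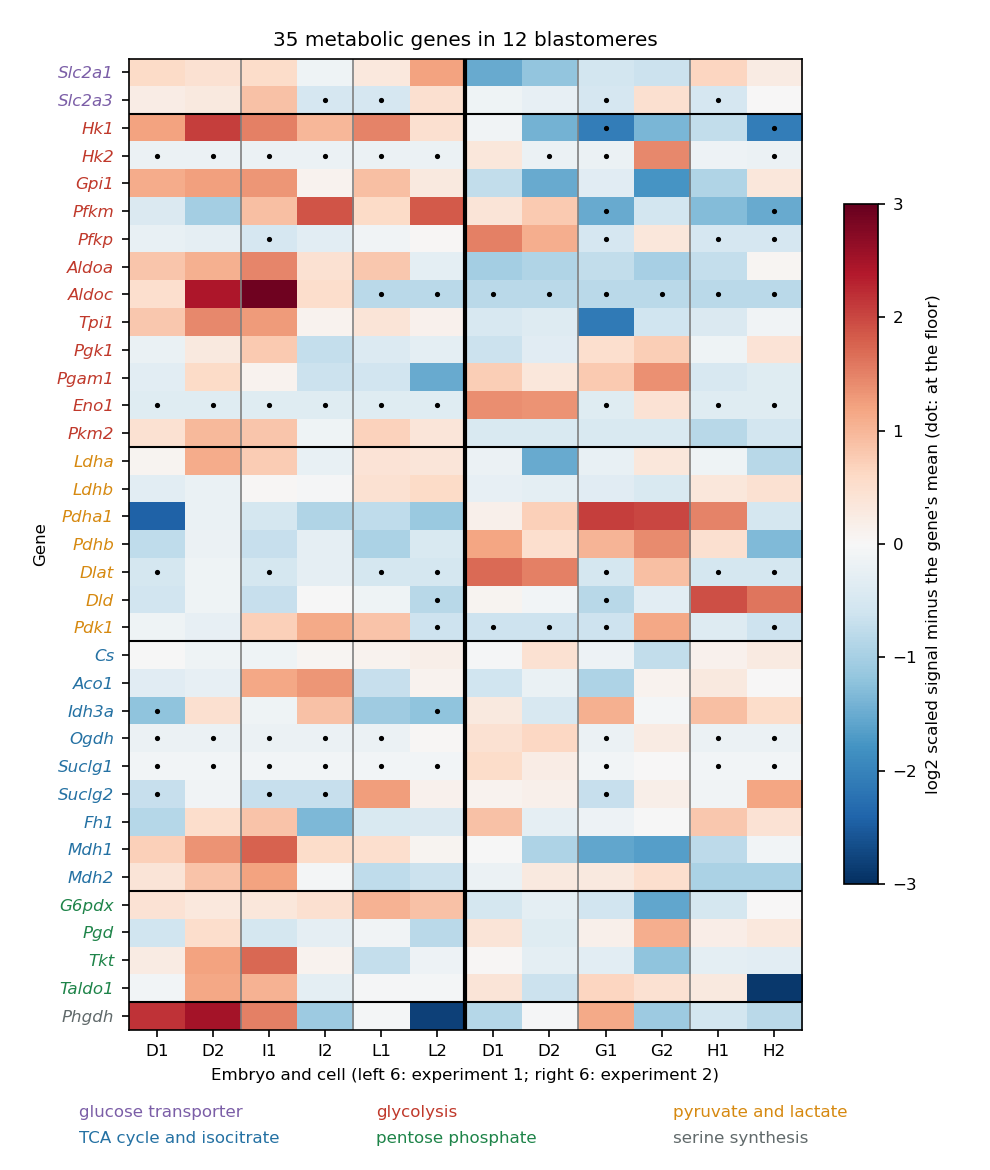
Rows are the 35 tested genes, coloured by branch, and columns the 12 cells by embryo and cell number. Colour gives the log2 scaled signal minus that gene's own mean over the cells, and dots mark values at the floor of -4.12. Aldoa, Gpi1, Pkm2 and G6pdx are red on the left and blue on the right, while Pdha1 shows the opposite.

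The first question was whether the branches stood at the same level in both experiments. Their median differences were unlike, but no test compared the branches. Across 11936 named genes tested, 8.23% differed between experiments at an adjusted p under 0.05 by limma's moderated test with embryo as a random block, 4.58% being lower and 3.64% higher in experiment 2. Among the 35 genes described here 6, or 17.1%, fell in experiment 2 (Hk1, Gpi1, Aldoa, Pkm2, Mdh1 and G6pdx), and 0 rose, with 2 higher at an unadjusted p under 0.05, Pdha1 and Pdhb. The oviduct, stroma and macrophage sums given above separate the same 2 sets of cells, although single oviduct and macrophage markers did not all fall. Of those 6, 4 belong to glycolysis, 1 to the TCA cycle and malate side and 1 to the pentose phosphate pathway. The 7 pyruvate and lactate genes gave no call, with 2 at an unadjusted p under 0.05. In either direction, 11 of the 35 and 2518 of the 11936 named genes were under that unadjusted cut. The median difference of experiment 2 minus experiment 1 was -1.15 over the 12 tested glycolysis genes, 0.79 over the 7 pyruvate and lactate genes, 0.17 over the 9 TCA cycle genes and -0.69 over the 4 pentose phosphate genes, beside 0.19 over all named genes. These medians are descriptions, since dim genes pass the filter through the experiment where they are brighter. Of the 12 glycolysis genes, 7 had a negative and 5 a positive difference. Over 25 other settings the glycolysis median stayed between -1.25 and -1.0 and below that of pyruvate and lactate in each, while the latter ran from -0.12 with normexp background correction, where all named genes moved to -0.73, to 0.96. The TCA cycle median turned as well, running from -0.54 with normexp to 0.21 and standing at -0.33 on genes measured on all 12 arrays.

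**Figure D2:**
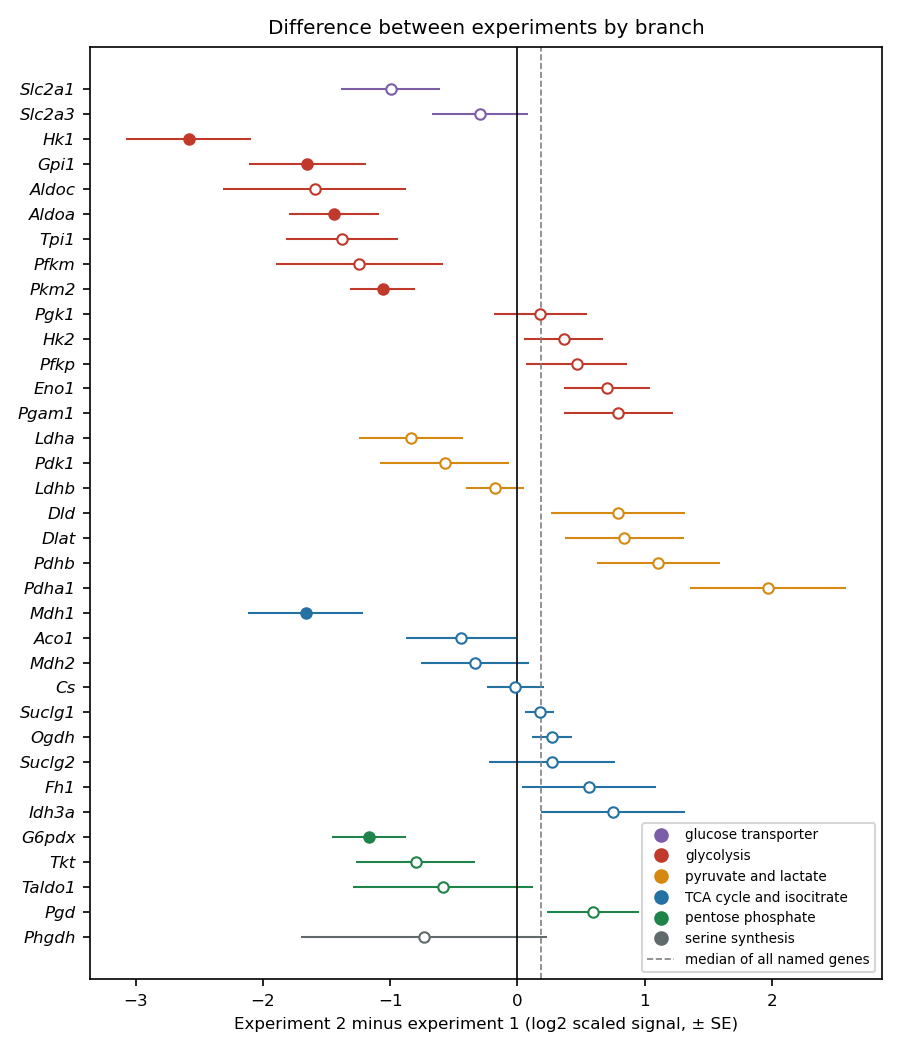
The difference of experiment 2 minus experiment 1 (log2 scaled signal, bars ± SE, 6 cells each) is shown for the 35 genes by branch, with filled circles where the adjusted p was under 0.05. The 6 filled circles, from Hk1 at -2.58 to Pkm2 at -1.06, lie left of 0, and the dashed line marks the median of all named genes at 0.19.

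The count of 6 rests on few cells and on the scaling. It was 1 without cell 1 of pair L and 3 without cell 2 of it, 3 without either cell of pair D of experiment 1, and 2 without cell 2 of pair G. It was 3 with the slide as a random block (Aldoa, Hk1 and Pkm2). It was also 3 with the mean of each embryo (Aldoa, Gpi1 and Hk1), where Pkm2, Mdh1 and G6pdx did not pass, with 380 lower and 198 higher probes. The count was 0 when arrays were scaled to the 75th percentile of all probes (5 lower and 1 higher at an unadjusted p under 0.05). There 146 of the 16694 probes tested passed instead of 1189. The split of lower to higher was 6 to 1 with quantile normalization and on genes measured on all 12 arrays, 5 to 1 with a lower floor and 1 to 1 on the deposited values, the single riser being Pdha1 each time. Normexp correction gave 673 lower and 194 higher probes against 646 and 543 in the main processing. Probe calls also changed in the settings above. They were 377 lower and 260 higher without cell 1 of pair L, and 613 and 477 without cell 2 of it. Without cell 1 of pair D of experiment 1 they were 520 and 402, and without its cell 2 502 and 437. Without cell 2 of pair G they were 444 and 319, and with the slide as a random block 450 and 356.

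Glucose enters through facilitative transporters. Slc2a1, the widespread GLUT1, stood at 0.10 and -0.01 (D), 0.08 and -0.59 (I) and -0.16 and 0.73 (L) of experiment 1. In experiment 2 it was at -1.98 and -1.66 (D), -1.02 and -1.11 (G) and 0.16 and -0.22 (H). Pair H overlapped the cells of experiment 1, and the difference of -1.0 ± 0.39 (SE, n = 6 cells against 6) did not pass (limma adjusted p = 0.171). Slc2a3, the GLUT3 transporter of the later blastocyst, was close to the floor, between -4.12 and -2.75.

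Hexokinase commits glucose to the cell by phosphorylation. Hk1, the housekeeping hexokinase, ran from -1.59 to 0.00 in experiment 1 with a median of -0.70, and from -4.12 to -2.16 in experiment 2 with a median of -3.45. The experiments did not overlap on this probe, which carries the accession BC072628, and the difference was -2.58 ± 0.49 (SE, adjusted p = 0.0072), a 5.99-fold change in which 2 cells of experiment 2 were at the floor. The other 5 Hk1 probes did not follow it: the 2 of them that were tested differed by 0.73 ± 0.53 and 0.27 ± 0.33, both short of the threshold. Hk2, the inducible form, was at the floor in all of experiment 1 and above it in 3 cells of experiment 2.

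Gpi1 turns glucose phosphate into fructose phosphate. It was at 1.44 and 1.55 (D), 1.64 and 0.42 (I) and 1.22 and 0.61 (L) of experiment 1, and at -0.42 and -1.19 (D), -0.02 and -1.46 (G) and -0.59 and 0.66 (H) of experiment 2. Only cell 2 of pair H reached the range of experiment 1. The difference was -1.65 ± 0.46 (SE, adjusted p = 0.046), or 3.14-fold, and passed under 9 of 25 other settings.

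Phosphofructokinase is the committed step of glycolysis. Pfkm, the muscle-type subunit, fell short of the threshold at -1.24 ± 0.66 (adjusted p = 0.338), with the highest signals in cell 2 of pair I at -0.72 and cell 2 of pair L at -0.77. Pfkp, the platelet type, stayed between -4.12 and -3.56 in experiment 1 and reached -2.09 and -2.53 (D) of experiment 2.

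Aldolase splits the hexose into trioses. Aldoa was at 3.17 and 3.40 (D), 3.82 and 2.79 (I) and 3.16 and 2.04 (L), and in experiment 2 at 1.32 and 1.43 (D), 1.61 and 1.35 (G) and 1.63 and 2.40 (H). All cells of experiment 2 but cell 2 of pair H lay below all of experiment 1. The difference was -1.44 ± 0.35 (SE, adjusted p = 0.025), or 2.71-fold, passed under 20 of 25 other settings, and a second probe gave -1.38 ± 0.36 (adjusted p = 0.037). Aldoc, the brain-type aldolase, was above the floor in 4 cells only, at -2.82 and -0.91 (D) and -0.41 and -2.79 (I) of experiment 1, the 2 embryos whose cells had the highest oviduct sums. Its difference of -1.59 ± 0.72 did not pass (adjusted p = 0.254), although it did with normexp correction.

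Tpi1, which interconverts the trioses, ran from -0.69 to 0.67 in experiment 1 and from -2.91 to -0.89 in experiment 2. The ranges did not overlap, and the difference of -1.38 ± 0.44 (adjusted p = 0.084) fell short. Pgk1 and Pgam1, a kinase and a mutase of lower glycolysis, did not go the same way: Pgk1 differed by 0.18 ± 0.36 and Pgam1 by 0.79 ± 0.43, neither passing. Eno1, the general enolase, was at the floor in all of experiment 1 although its probe was well above background on 4 of those arrays.

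Pyruvate kinase closes glycolysis. Pkm2, as the array names the muscle and embryonic gene now called Pkm, lay at -0.10 and 0.43 (D), 0.28 and -0.67 (I) and 0.14 and -0.19 (L) of experiment 1. In experiment 2 it lay at -0.99 and -1.0 (D), -1.01 and -1.0 (G) and -1.38 and -1.09 (H). The cells of experiment 2 formed a narrow band (mean -1.08, SD 0.15) and did not overlap experiment 1. The fall of -1.06 ± 0.25 (SE, adjusted p = 0.024) was 2.08-fold, while a second probe of the gene showed 0.16 ± 0.38 with overlapping groups.

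**Figure D3:**
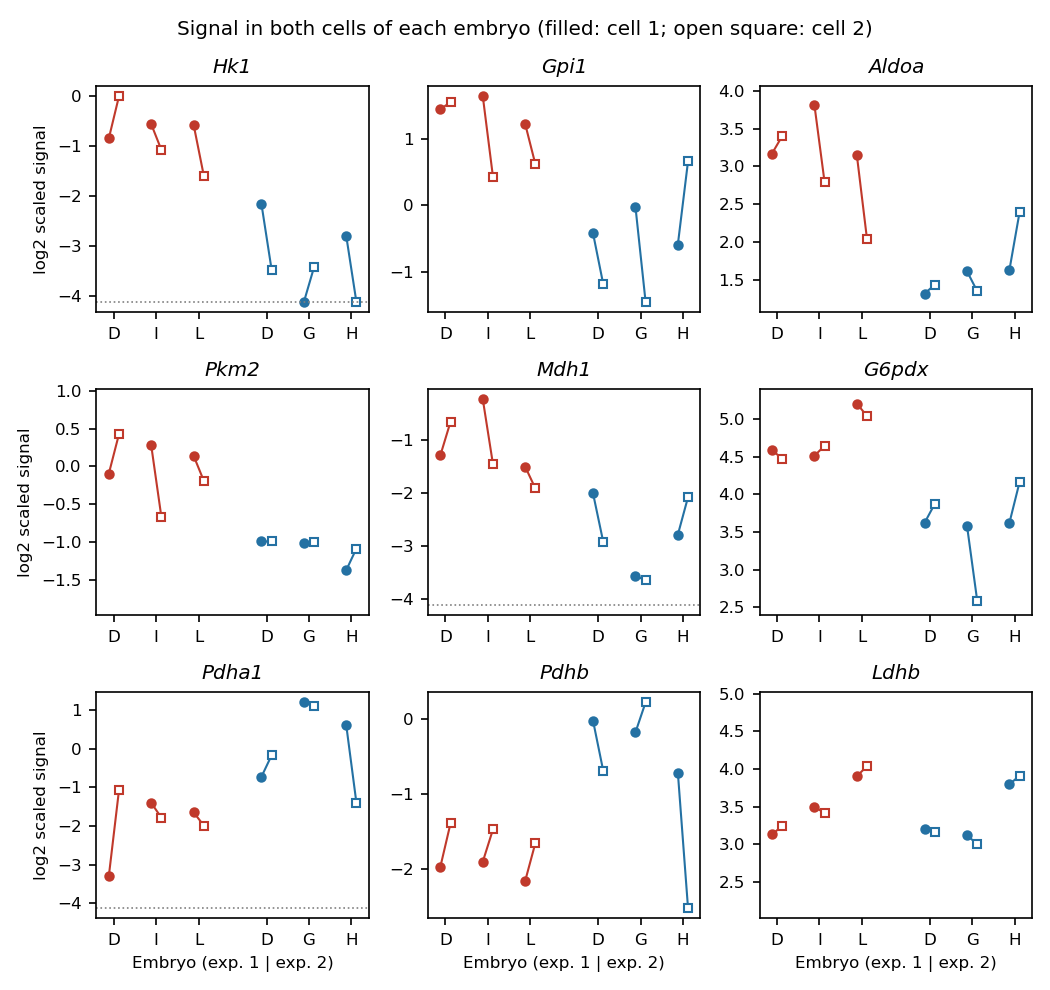
Each panel gives the log2 scaled signal of 1 gene in cell 1 (filled circle) and cell 2 (open square) of each embryo, red for experiment 1 and blue for experiment 2, with a dotted line at the floor of -4.12 where values come near it. Pkm2, Mdh1 and G6pdx separate the experiments, Pdha1 and Pdhb are mostly higher in experiment 2, and the lines of Ldhb are nearly flat.

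Lactate dehydrogenase links pyruvate and lactate. Ldhb, the subunit that prevails in oocytes and heart, was at 3.13 and 3.24 (D), 3.49 and 3.42 (I) and 3.90 and 4.04 (L). In experiment 2 it was at 3.20 and 3.16 (D), 3.12 and 3.0 (G) and 3.80 and 3.91 (H). The experiments overlapped (difference -0.17 ± 0.23, adjusted p = 0.684), and the embryos with the highest signal were L and H. Ldha, the muscle subunit, ranged from -0.69 to 0.65 in experiment 1 and from -1.97 to -0.13 in experiment 2, a difference of -0.84 ± 0.41 that did not pass (adjusted p = 0.301).

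The pyruvate dehydrogenase complex makes acetyl-CoA. Pdha1, its catalytic alpha subunit on the X chromosome, was at -3.30 and -1.07 (D), -1.40 and -1.78 (I) and -1.64 and -1.99 (L) of experiment 1. In experiment 2 it was at -0.72 and -0.17 (D), 1.20 and 1.12 (G) and 0.61 and -1.40 (H). With cell 2 of pair H the only cell of experiment 2 inside the range of experiment 1, the difference of 1.97 ± 0.61 (3.92-fold) missed the threshold (adjusted p = 0.075). Without that cell it was 2.28 ± 0.52 and passed (adjusted p = 0.018). A second, dimmer Pdha1 probe differed by 0.43 ± 0.42 (adjusted p = 0.591). Its partner Pdhb, the beta subunit, was also low in that cell, at -2.52 against -0.71 to 0.23 in the other 5 cells of experiment 2 and -2.15 to -1.39 in experiment 1. Pdhb differed by 1.11 ± 0.48 with all cells (adjusted p = 0.226) and by 1.46 ± 0.29 without that cell (adjusted p = 0.0093). That cell was singled out by these same values, so the passes without it are descriptions. Over 25 other settings, with that one among them, Pdha1 passed under 5 and Pdhb under 1.

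Dlat and Dld, the other catalytic subunits of the complex, were dim. Dlat was at -1.90 and -2.08 (D) and -2.70 in cell 2 of pair G of experiment 2, and between -4.12 and -3.73 elsewhere. A second Dlat probe had another pattern. It was highest in cell 1 of pairs H and D of experiment 2, at -2.8 and -2.86, and at the floor in both cells of pair G. Dld, shared with other ketoacid dehydrogenases, was brightest in pair H at -1.37 and -1.70. Pdk1, a kinase that switches the complex off, gave -0.57 ± 0.51 with overlapping experiments, and a second probe 0.73 ± 0.34, neither passing.

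Cs, citrate synthase, opens the TCA cycle. Its signal lay between 3.92 and 4.22 in experiment 1 and between 3.31 and 4.51 in experiment 2, a difference of -0.02 ± 0.22 (adjusted p = 0.978). A second Cs probe differed by 1.15 ± 0.37 without passing (adjusted p = 0.089), so the probes of this gene disagreed. Aco1, the cytosolic aconitase that also binds iron response elements, was highest in pair I at -0.79 and -0.63. A second, dimmer Aco1 probe was at the floor in both cells of pair I and highest in pair D of experiment 2, at -2.2 and -2.4. Fh1, fumarase, had 87.8% of its spread inside experiments between sister cells, with cell 2 minus cell 1 at 1.39 in pair D and -2.22 in pair I of experiment 1. Idh3a, the catalytic subunit of NAD-linked isocitrate dehydrogenase, ran from the floor to -1.85, and Suclg2, of succinate-CoA ligase, from the floor to -2.16. Ogdh and Suclg1, of the oxoglutarate and succinate steps, never exceeded -3.34 on the probes tested. Another Ogdh probe, untested with 5 arrays well above background, reached -2.84 in cell 1 of pair D of experiment 2.

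Malate dehydrogenase works on both sides of the mitochondrial membrane. Mdh1, the cytosolic form of the malate-aspartate shuttle, was at -1.29 and -0.65 (D), -0.23 and -1.46 (I) and -1.50 and -1.91 (L), and in experiment 2 at -2.01 and -2.92 (D), -3.57 and -3.65 (G) and -2.79 and -2.08 (H). The groups did not overlap, and the fall of -1.66 ± 0.45 (SE, 3.17-fold, adjusted p = 0.043) passed under 9 of 25 other settings. A second Mdh1 probe, at the floor in 10 cells, differed by -0.05 ± 0.13 (adjusted p = 0.831) with overlapping groups. Mdh2, the mitochondrial form, differed by -0.33 ± 0.42 and overlapped. Whether the change differed between the forms was not tested.

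G6pdx, the X-linked glucose-6-phosphate dehydrogenase, makes the first NADPH of the pentose phosphate pathway. It stood at 4.59 and 4.47 (D), 4.51 and 4.64 (I) and 5.20 and 5.04 (L), against 3.62 and 3.87 (D), 3.58 and 2.59 (G) and 3.62 and 4.16 (H) of experiment 2. Every cell of experiment 1 was above every cell of experiment 2. The fall of -1.17 ± 0.29 (SE, 2.25-fold, adjusted p = 0.028) passed under 16 of 25 other settings. Pgd, the next NADPH step, differed by 0.59 ± 0.36, Tkt, transketolase, by -0.80 ± 0.47 and Taldo1, transaldolase, by -0.59 ± 0.71, and none of the 3 passed. Phgdh, which takes glycolytic carbon into serine, differed by -0.73 ± 0.97 and had the largest mean difference between sister cells of the set, described below.

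RefSeq lists promoter windows for 38 of the 40 genes on GRCm38.p6 (Idh3a and Slc2a3 are not matched). The bases before the start site are shown for 3 genes that fell together in experiment 2 and have a single listed start, G6pdx (chrX:74428881-74429130, minus strand), Gpi1 (chr7:34230337-34230586, minus strand) and Mdh1 (chr11:21571935-21572184, minus strand), and for Ldhb (chr6:142507958-142508207, minus strand), which did not fall. Capitals mark the GC box GGGCGG bound by Sp factors and the hypoxia response core ACGTG, read on both strands.
G6pdx: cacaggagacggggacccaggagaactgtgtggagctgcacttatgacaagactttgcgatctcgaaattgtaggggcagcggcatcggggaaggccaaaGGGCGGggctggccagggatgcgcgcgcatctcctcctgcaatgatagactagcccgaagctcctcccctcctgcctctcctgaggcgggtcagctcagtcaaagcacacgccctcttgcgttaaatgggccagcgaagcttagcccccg
Gpi1: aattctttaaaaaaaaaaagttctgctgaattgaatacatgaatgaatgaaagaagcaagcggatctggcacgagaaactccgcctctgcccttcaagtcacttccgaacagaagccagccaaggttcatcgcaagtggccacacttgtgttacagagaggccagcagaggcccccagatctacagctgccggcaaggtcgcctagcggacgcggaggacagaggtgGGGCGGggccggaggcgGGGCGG
Mdh1: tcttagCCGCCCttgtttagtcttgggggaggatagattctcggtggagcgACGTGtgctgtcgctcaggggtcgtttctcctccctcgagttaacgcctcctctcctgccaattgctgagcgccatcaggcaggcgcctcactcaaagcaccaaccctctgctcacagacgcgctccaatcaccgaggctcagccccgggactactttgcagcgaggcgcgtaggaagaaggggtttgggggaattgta
Ldhb: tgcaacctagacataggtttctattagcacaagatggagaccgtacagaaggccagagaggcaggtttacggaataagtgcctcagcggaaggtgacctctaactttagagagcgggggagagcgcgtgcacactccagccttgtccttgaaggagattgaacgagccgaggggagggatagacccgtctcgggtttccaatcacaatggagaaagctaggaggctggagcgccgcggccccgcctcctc
A GC box occurred in 27 of the 38 genes (71.1%) against 35.4% of all 27025 genes with a window of 250 bases. For each motif a gene was counted if any of its windows held it. The 38 genes had 57 windows and the 27025 had 32851. The latter were not limited to genes on the array, so the shares are not like for like. In the windows shown the GC box occurred once in G6pdx, 2 times in Gpi1, once in Mdh1 and not in Ldhb. Among the other genes that fell, Aldoa and Pkm2 had the box in a listed window and Hk1 in neither of 2. Genes that did not pass, among them Cs, Pgk1 and Mdh2, had it too. The core ACGTG, which also forms part of the E box CACGTG, occurred in 11 of the 38 (28.9%) against 18.5%, and the E box itself in 3, Ldha, Ogdh and Pfkm (7.89% against 6.86%). These matches describe letters in the windows shown and were not tied to the signals by any test.

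Other genes of the same pathways were read from a list of 57, of which 39 were tested. Of these, 3 rose and 2 fell in experiment 2, or 5 of 39 against 8.23% of all named genes. The risers were Mpc1 and Mpc2, the subunits of the mitochondrial pyruvate carrier, at 1.35 ± 0.32 (adjusted p = 0.023) and 1.27 ± 0.28 (adjusted p = 0.015), and Me1, the cytosolic malic enzyme, at 1.0 ± 0.26 (adjusted p = 0.034). A second Mpc1 probe gave 1.73 ± 0.40 (adjusted p = 0.019). Mpc2 ran from -1.82 to -0.56 in experiment 1 and from -0.28 to 0.71 in experiment 2, with no overlap. Pcx, pyruvate carboxylase, fell by 3.30 on the log2 scale (SE 0.76, adjusted p = 0.019, 9.88-fold). Pcx was at 2.76 and 2.68 (D), 2.46 and 0.54 (I) and 0.22 and -0.12 (L), against -3.12 to -0.24 in experiment 2. Sdhd, a membrane anchor of succinate dehydrogenase, fell too, at -1.62 ± 0.42 (adjusted p = 0.034). Sdhd passed under 12 and Me1 under 14 of 25 other settings, against 19 for Mpc1, 21 for Mpc2 and 23 for Pcx. The 9 tested glycolysis genes of this list had a median difference of 0.08, with 2 negative and 7 positive. That is beside -1.15 over the 12 described above. The medians were 0.44 over its 11 pyruvate and lactate genes, 0.07 over 9 TCA cycle genes and -0.46 over 4 pentose phosphate genes.

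The second question was whether embryos of 1 experiment differed from each other by more than their sister cells did. By limma's moderated F test over 4 contrasts within experiments, 5.09% of named genes passed, and 2 of the 35 genes here (5.71%): Ldhb and Eno1. A further 10 had an unadjusted p under 0.05. That made 12 of the 35 under this cut, beside 3520 of the 11936 named genes. Ldhb (adjusted p = 0.031) had embryo means of 3.19 in pair D, 3.46 in pair I and 3.97 in pair L of experiment 1, and in experiment 2 pair H at 3.85 stood over D at 3.18 and G at 3.06. Sister cells differed by 0.10 ± 0.03 (SD, n = 6 embryos) on average, and 2.27% of its spread inside experiments lay between sisters. Of 4757 genes measured in all cells, 0.147% had a smaller mean difference between sisters. The unadjusted p of Ldhb was between 6.32e-05 and 0.031 over 26 other settings, and the adjusted p between 0.0036 and 0.695.

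Eno1 (adjusted p = 0.028) was above the floor in 3 cells, at -2.38 and -2.43 in pair D and -3.33 in cell 2 of pair G of experiment 2. These are the arrays with the most spots well above background, at 78.8%, 64.3% and 52.8%. Suclg1 was above the floor in the same 3 cells, and Ogdh in these and in cell 2 of pair L at -3.93. Second, dimmer probes of Ldha and Suclg2 also passed (adjusted p = 0.036 and 0.029), both brightest in pair D of experiment 2 and at most at -4.09 in all other cells. Of the other pathway genes, Slc2a4, Pdk2 and Rpe passed, 3 of 39 against 5.09% of all named genes, each with its highest signal in pair D of experiment 2. Without that pair 0 of the 35 passed and 6 had an unadjusted p under 0.05, and 1 of the 16694 probes passed instead of 956. At the unadjusted cut there were 1766 probes instead of 5037.

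The embryo count moved with single cells too. It was 0 without cell 1 or 2 of pair D of experiment 1 (12 and 11 at an unadjusted p under 0.05) and without cell 1 or 2 of pair H (9 and 10), 8 and 4 without cell 1 or 2 of pair L, 6 and 5 without cell 1 or 2 of pair G, and 1 without either cell of pair D of experiment 2. With the cell number as a block, Eno1 alone passed. Inside the slides that hold 2 embryos each, 0 passed and 5 had an unadjusted p under 0.05. Of all 16694 probes, 1572 were under that unadjusted cut inside those slides. When 1 cell was left out, 3221 to 6620 were, against 5037 in the main processing.

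The third question was whether cell 1 and cell 2 differed in a shared direction. By limma with embryo as a fixed block, 0 of the 35 genes and 0.0% of the 11936 named genes passed, and 0 and 386 had an unadjusted p under 0.05. The largest mean shift of cell 2 against cell 1 among the 35 was that of Phgdh, at -1.11 (adjusted p = 0.664).

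The distance between sister cells was not the same in all embryos. Over the 24 genes measured in all cells the median of the mean absolute sister difference was 0.65, beside 0.57 over 4757 genes. In pair I of experiment 1, 17 of the 24 were lower in cell 2, with a median of -0.97 where all genes had 0.06. Gpi1 went from 1.64 to 0.42, Aldoa from 3.82 to 2.79, Mdh2 from 2.92 to 1.64 and Tkt from 0.95 to -0.68, each a fall of over 1 on the log2 scale. Cs and G6pdx did not follow, at 3.92 and 4.10 and at 4.51 and 4.64. In the same embryo the oviduct sum went from 73.4 to 18.3 and the stroma sum from 98.7 to 28.9 between cell 1 and cell 2, while the sum of oocyte markers went from 65.9 to 85.6.

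Pair D of experiment 1 went the other way. There 19 of the 24 genes were higher in cell 2, with a median of 0.48 beside 0.07 for all genes, and the oviduct sum was 30.2 in cell 1 and 52.9 in cell 2. For pair L and for the 3 embryos of experiment 2 the medians lay between -0.02 and 0.09. In pair L, with a median of 0.003, the macrophage and blood sum went from 262.0 in cell 1 to 32.6 in cell 2. The oviduct sum of that pair was 9.8 in cell 1 and 9.59 in cell 2. The part of the marker transcripts in these sister differences was not tested, and no cell was measured more than once.

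**Figure D4:**
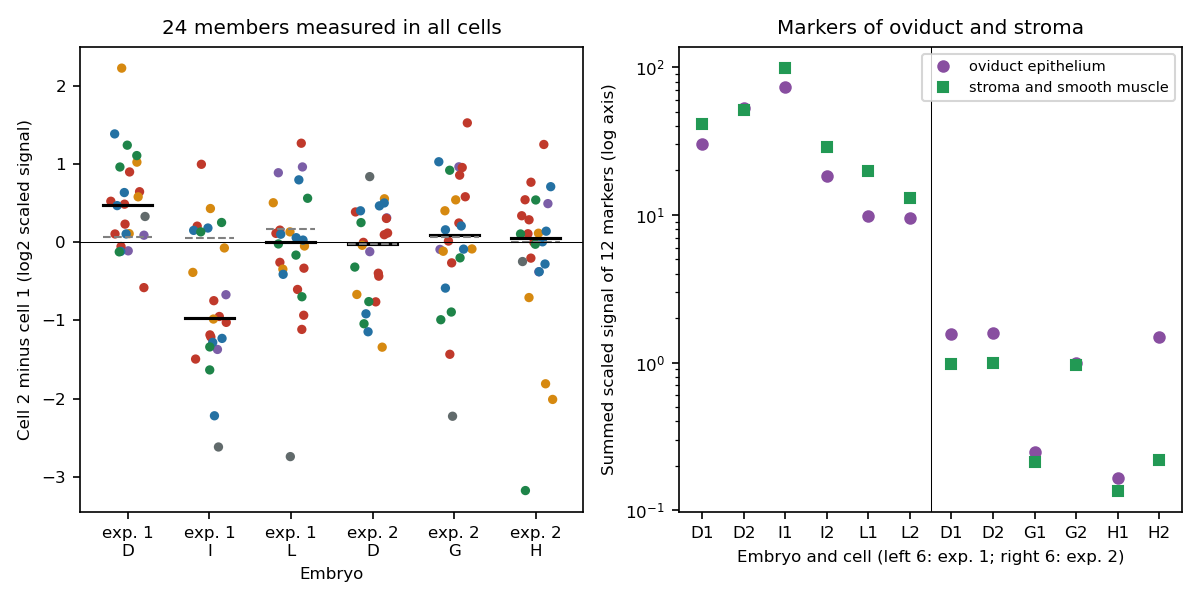
Left, cell 2 minus cell 1 (log2 scaled signal) for the 24 genes measured in all cells, coloured by branch as in the plot of differences between experiments, with black lines at their median and grey dashed lines at the median of all genes. Right, the summed scaled signal of 12 oviduct and 12 stroma markers in each cell on a log axis. The median of pair I is -0.97, the embryo whose oviduct sum goes from 73.4 to 18.3.

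Phgdh and Taldo1 differed most between sisters. Phgdh, the first enzyme of serine synthesis, was at 1.47 and 1.80 (D), 0.83 and -1.79 (I) and -0.77 and -3.50 (L) of experiment 1, and at -1.56 and -0.72 (D), 0.44 and -1.78 (G) and -1.25 and -1.50 (H). Cell 2 was lower by over 2 log2 units in pairs I, L and G. A second probe gave -2.01 in pair I, -1.25 in pair L and -1.54 in pair G, in the same direction. The remaining probe, at the floor in 8 cells, did not follow, with 0.0 in pair I, 0.83 in pair L and 0.57 in pair G. The mean absolute sister difference was 1.5 ± 1.16 (SD, n = 6 embryos), and 0.547% of the 4757 genes had a larger one. For Taldo1 it was 1.17 ± 1.12, with the widest gap in pair H, where cell 1 was at 0.44 and cell 2 at -2.74. At the other end were Ldhb and Cs, the latter at 0.26 ± 0.22, with 6.64% of genes smaller.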

How the data were processed

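Each of the 12 arrays measured the amplified RNA of 1 blastomere. The deposited scanner files hold spot intensity, which per the file headers came from Agilent Feature Extraction 9.1.3.1. Its processed signal is background-subtracted, and in experiment 1 it is also divided by a fitted spatial trend. A deposited table of linear intensity, floored and scaled by 1 constant per array, served as an alternative. Channel, slide and outlier flags come from the same files, and no spot was saturated.

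Outlier spots were left out, spots of a probe were averaged, and each array's processed signal was divided by its 75th percentile over the 5857 probes detected on every array. Values under 0.0574, the highest of the arrays' lowest detected signals, were set to that floor, and log2 was taken. A probe entered the tests if 6 or more arrays showed it well above background (16694 probes). Names came from RefSeq accessions for 22951 probes and from the files for 11758, and 6465 stayed unnamed. The tested probe with the highest mean stood for a gene.

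limma 3.58.1 in R 4.3.3 compared experiments (embryo as a random block), embryos within experiments, and cell numbers (embryo as a fixed block), with eBayes and a variance trend and Benjamini-Hochberg adjustment over all tested probes at 0.05. The scripts were tested on simulated data. Sister cells are separate cells of 1 embryo, so p-values between experiments rest on 3 embryos each, and depth is limited to the number of spots above background. Alternatives changed the background correction, scaling, floor, filter, blocks and cells included; the closing section gives their effect.

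The members and gene lists were chosen with earlier results of these data known, and 1 pathway gene is not reported here. All 40 members could be named, with up to 4 other pathway genes per branch and direction among those that passed, and any listed marker.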

Additional observations from a re-analysis of the deposited data

Results flagged for a closer look

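A cell was marked where its gap to the nearest of the 6 cells of its experiment exceeded 0.625 of their range, which chance does in about 1 of 20 groups. Over 45 checks, 7 values were marked, all in experiment 2. In pair H, cell 2 was marked for 3 genes: Aldoa at 2.40 was above the next cell at 1.63, Pdhb at -2.52 was below the next at -0.71, and Taldo1 at -2.74 was below the next at -0.51. Cell 1 of that pair was marked for Pkm2, at -1.38 against -1.09. In pair G, cell 2 was marked for G6pdx at 2.59 (next 3.58) and for Tkt at -1.99 (next -1.10), and cell 1 for Tpi1 at -2.91 (next -1.38). No cause of these values was tested.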

How the results depend on the processing

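Of the members, 6 fell between experiments in the main processing, and no count below is a test of a cause, which was not tested. Counted in either direction, the calls numbered 0 with the 75th percentile of all probes, 2 with the deposited values (1 lower and 1 higher), 3 with a floor per array, with the slide as a random block and with the mean of each embryo, and 1 to 8 when 1 cell was left out. With the cell number as replicate block there were 4, and the other 8 settings gave 4 to 7. The number that fell was never over 6, and counts above that include 1 or 2 genes that rose. The 6 genes kept their sign in every setting run, as did the 5 pathway genes, of which each lost its call in 2 to 13 of 25. Sister differences of cell numbers correlated between -0.0793 and 0.259 over 15 pairs of embryos, with 3 of them over 0.1. These values cannot decide whether the numbers mean the same in all embryos, as no cell was measured more than once.

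Between embryos, 2 members passed in the main processing. The count was 0 with quantile normalization, with a lower common floor, with the deposited values, with genes measured on all 12 arrays, without a variance trend, without pair D of experiment 2, within slides of 2 embryos and in experiment 1 alone. It was 1 in experiment 2 alone and with the replicate block, 4 over every probe of a member, 12 with normexp and 10 where each array kept its own floor, and 0 to 8 when 1 cell was left out. Of all 16694 probes, 8653 had an unadjusted p under 0.05 with normexp and 6843 with a floor per array, against 5037 in the main processing. Between cell numbers the count of members was 0 in all 26 settings. The settings without a variance trend and without pair D of experiment 2 were chosen after seeing the data. The number of genes detected on all arrays went from 24 to 21 when signal over the floor replaced the flag, and the median sister difference over the 35 genes, 0.64, ran from 0.59 to 0.65. Genes at the floor, 0.0574 of the scale, cannot be ordered below it.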
